A study of Mus musculus with 6 samples.

Results

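Structural microtubule-associated proteins (MAPs) coat the microtubule lattice, set its stability, and decide which motors and enzymes reach it. The 10 genes followed here were taken by name from 3 families: Map7, Map7d1, Map7d2, and Map7d3 (the MAP7 family), Map4, Map2, and Mapt (a family that shares tubulin-binding repeats), and Map1a, Map1b, and Map1s (the MAP1 family). Of these, 9 are in the deposited table of 21269 genes, and all 9 passed the filter on low values. Map7d3 was not analysed here. Map7d2 was chosen by its normalized counts, for its strong fall in LNA Malat1, so its values are given as a description and without a test, which leaves 8 tested genes. The other genes joined it by family name.

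The RNA came from HL-1, a mouse cell line derived from atrial cardiomyocytes, grown in Claycomb medium with serum and norepinephrine on gelatin and fibronectin. Cells were transfected with 50 nM of a control LNA gapmer (LNA Control, 3 libraries) or of an LNA gapmer against the long noncoding RNA Malat1 (LNA Malat1, 3 libraries) 24 hours after seeding and were collected 48 hours later. Gapmers pair with their target RNA through a DNA core flanked by locked nucleic acids, and RNase H then cuts that RNA. Nothing in the sources says whether the 3 libraries of a group came from separate cultures, so p-values measure the spread between these libraries, which may be technical.

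Values are normalized counts, the reads of a gene divided by 1 factor per library and rounded by the authors to whole numbers. They summed to between 4758777 and 4921406 per library, and the factors recovered from the rounding gave between 4511897 and 5593823 reads on genes. Malat1, the targeted RNA, had 5051, 5197, and 4369 normalized counts in LNA Control against 2833, 2792, and 2732 in LNA Malat1, 57.2% of LNA Control, so the RNA was reduced and not removed. Of 11 atrial cardiomyocyte markers, 10 are in the table and 9 had a mean of at least 5 normalized counts, among them Actc1 (409 to 475 over the 6 libraries) and Tnnt2 (647 to 746). The alpha myosin heavy chain gene Myh6 was at 0 to 7, and Nppa was not analysed here. Myl7 (18 to 32) and Myl4 (30 to 49) were also low. The 10 markers summed to 5229 to 5537 normalized counts in LNA Control and 5056 to 5258 in LNA Malat1. Ryr2 alone had 2237 to 2706 over the 6 libraries. Of 7 fibroblast markers 5 are present (summed, 5304 to 5911 and 4683 to 4817), with Col1a2 at 0 or 1. Of 6 endothelial markers 3 are present (22 to 31 and 36 to 37), and of 5 immune markers 3 (35 to 37 and 59 to 90). By the calls defined below, 1 of the 9 cardiomyocyte markers with a mean of at least 5 was higher. So were both such immune markers (Cd68 and Csf1r), where 8.0% of all genes were. Of genes with a mean from 20 to below 50, the range of Cd68 and Csf1r, 19.6% were called higher. None of the 4 fibroblast and 2 endothelial markers with a mean of at least 5 was called in either direction. The immune marker Cd3e, too low to be tested, had 1, 0, and 3 normalized counts in LNA Control against 9, 9, and 5 in LNA Malat1. The part of these lists in the results below was not tested. LNA Malat1 replicates 1 and 3 were closer to each other than any other pair. Their chi-square per gene was 0.95 (14522 genes), below the value near 1 that sampling noise gives and thus without spread beyond it. It was 1.09 (chi-square p = 0.0031) in the 1754 deepest genes, those having 1600 or more reads over both libraries. That exceeds sampling noise, so they were counted as separate libraries. The excess may be technical, so it cannot decide whether they came from separate cultures. Of the other LNA Malat1 pairs, 1 with 2 came to 1.01 over 14308 genes (chi-square p = 0.15). The pair of 2 with 3 came to 1.16 over 14397 genes (chi-square p = 5.9e-40). At 1600 or more reads, these 2 pairs came to 1.66 and 2.02. The LNA Malat1 libraries thus lay nearer to sampling noise than those of LNA Control. All 3 pairs of LNA Control exceeded sampling noise (1.77 to 4.18 per gene).

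Each MAP family has its own way of working. MAP7 proteins bind the lattice with one part of the protein and recruit and activate the motor kinesin-1 with another. MAP2, MAP4, and tau bind along the lattice through repeated tubulin-binding motifs and stabilize it. MAP1 proteins are made as long chains that are cut into a heavy and a light chain. MAP2, tau, MAP1A, and MAP1B are best known from neurons, whereas MAP4 is the widespread member in other tissues, heart muscle included.

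The limma fit used log2(normalized count + 1) and Benjamini-Hochberg adjustment over all 15650 genes with a mean of at least 5 normalized counts. Calls needed both an adjusted p no higher than 0.05 and a change of 1.5-fold or more. Low genes change by more than their fold on this scale shows. Of the 8 MAP genes other than Map7d2, 2 were called, Map4 and Mapt, and both were lower in LNA Malat1. Over all genes tested, 2.92% were called lower and 8.0% higher. These shares depended on level. Of genes with a mean from 200 to below 500 (the range of Map7 and Map1s), 3.05% were called lower and 1.41% higher. With a mean of at least 500 (Map7d1, Map4, Map1a, and Map1b), 2.22% were lower and 0.343% higher. From 20 to below 50 (Mapt) the shares were 3.87% and 19.6%, and from 10 to below 20 (Map2) 1.54% and 18.5%. At the adjusted p alone, 4 of the 8 were lower (Map4, Map1b, Mapt, and Map7) and none was higher, where 14.0% of all genes were lower and 14.3% higher. At an unadjusted p under 0.05, limma and voom each gave 4 lower genes and 1 higher gene, Map1s, where limma gave 19.2% of all genes lower and 20.7% higher. The median log2 fold change of the 8 was -0.12, and 0.02 over all genes tested. In 4 of the 8 all LNA Malat1 libraries were below all LNA Control libraries, an order that 20.8% of all genes showed. In bulk RNA, fewer cells of a type and less RNA per cell cannot be told apart.

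**Figure D1:**
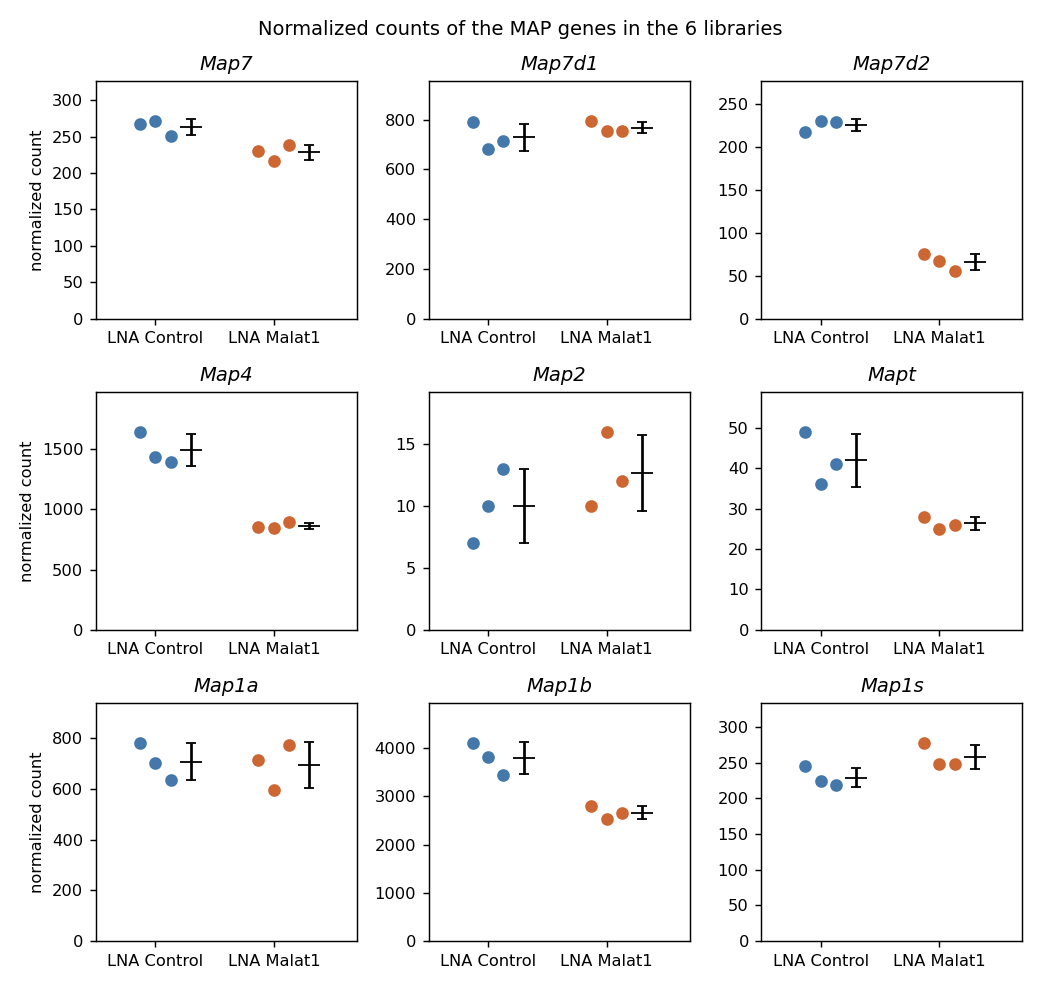
Normalized counts (y axes, from 0) of the 9 genes in LNA Control (blue) and LNA Malat1 (orange), with 1 point per library and the mean ± SD (n = 3) as a black bar. The groups are apart and LNA Malat1 is the lower in Map7d2, Map4, Map1b, Mapt, and Map7, they are apart with LNA Malat1 the higher in Map1s, and they overlap in Map7d1, Map1a, and Map2.

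Map4, the MAP of nonneuronal cells, lies on chromosome 9 (mm10, positions 109931460 to 110083955, plus strand). It had 1643, 1435, and 1392 normalized counts in LNA Control against 852, 848, and 892 in LNA Malat1. The highest LNA Malat1 library was well below the lowest LNA Control library. The mean was 1490 ± 134.2 (SD, n = 3) and 864.0 ± 24.3 (SD, n = 3), 58.0% of LNA Control. Its log2 fold change of -0.78 had an SE of 0.06 (adjusted p = 3.6e-06, limma). Map4 was called with each library left out and in 17 of 18 alternative settings, with log2 fold changes from -0.83 to -0.71.

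Mapt encodes tau, the MAP of axons, on chromosome 11 (positions 104231390 to 104332090, plus strand). It was measured with few reads, at 49, 36, and 41 normalized counts in LNA Control against 28, 25, and 26 in LNA Malat1. The groups were 8 normalized counts apart at their closest. Its log2 fold change of -0.64 had an SE of 0.18 (adjusted p = 0.019, limma), whereas the 1835 genes with a mean from 20 to below 50 had a median log2 fold change of 0.23. The call was lost with any of 3 libraries left out. Without LNA Control replicate 1 the log2 fold change was -0.53 (limma adjusted p = 0.066). It was -0.61 without LNA Malat1 replicate 2 (limma adjusted p = 0.064) and -0.64 without LNA Malat1 replicate 3 (limma adjusted p = 0.057), about the size with all libraries.

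Map2, the MAP of dendrites, was near the limit of detection, at 7, 10, and 13 normalized counts in LNA Control against 10, 16, and 12 in LNA Malat1. It lies on chromosome 1 (positions 66175273 to 66442583, plus strand). The groups overlapped, and the interval of its log2 fold change of 0.33 ran from -0.37 to 1.03 (95%, limma adjusted p = 0.48), so that neither a fall nor a rise was detectable at this depth. Genes with a mean from 10 to below 20 had a median log2 fold change of 0.32.

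Map1b, the MAP1 protein of growing axons, had the highest level per kilobase of the 9 genes in LNA Control, on chromosome 13 (positions 99421446 to 99516540, minus strand). It had 4109, 3817, and 3445 normalized counts in LNA Control against 2793, 2530, and 2664 in LNA Malat1. All 3 LNA Malat1 libraries lay below all 3 LNA Control libraries. Its mean was 70.2% of LNA Control, a log2 fold change of -0.51 with an SE of 0.07 (adjusted p = 0.00027, limma). The adjusted p stayed at 0.0056 or lower in all 18 alternatives, but the change, 1.42-fold lower, was under the fold minimum, and the log2 fold change lay between -0.57 and -0.45 over the alternatives.

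Map1a, which encodes the MAP1 protein of mature neurons, did not pass the test. It lies on chromosome 2 (positions 121289600 to 121310832, plus strand) and had 782, 704, and 636 normalized counts in LNA Control against 713, 595, and 773 in LNA Malat1. The groups overlapped, and LNA Malat1 held both the lowest library and the second highest. The log2 fold change was -0.03, with an interval from -0.23 to 0.17 (95%, limma adjusted p = 0.83). Part of its exons, 2.24% of their bases, is shared with Ppip5k1 on the other strand. Reads on several genes were not counted, and whether the strand was used in counting is not given in the sources used here.

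Map1s, the short and widespread member of the family, had 245, 224, and 219 normalized counts in LNA Control against 278, 248, and 249 in LNA Malat1. It lies on chromosome 8 (positions 70905932 to 70917529, plus strand). All LNA Malat1 libraries were above all LNA Control libraries, by 3 normalized counts at the closest. This was the 1 gene of the 9 with that order, which 20.5% of all genes tested showed. Its log2 fold change of 0.17 (95% interval 0.01 to 0.33) did not pass the test (limma adjusted p = 0.098), and the adjusted p was at or under 0.05 in 3 of 18 alternatives, 1 of them without LNA Control replicate 1 (limma, 0.037).

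Map7d2, the member chosen for its strong fall in LNA Malat1, is a MAP7 paralog known best from brain, on the X chromosome (positions 159414572 to 159498757, plus strand). It had 218, 231, and 229 normalized counts in LNA Control against 75, 67, and 56 in LNA Malat1. The mean went from 226.0 ± 7.0 (SD, n = 3) to 66.0 ± 9.5 (SD, n = 3), 29.2% of LNA Control, or 3.41 times lower on the log2(normalized count + 1) scale. These values chose the gene and carry no test. Its log2 fold change was -1.77 and lay between -1.87 and -1.66 over 18 alternatives. Next in size came Map4 at -0.78 and Mapt at -0.64. LNA Malat1 replicates 1 and 3, the closest pair of libraries over all genes, were the farthest apart within their group for this gene, with 75 and 56. The 3675 genes with a mean from 50 to below 200 had a median log2 fold change of 0.01.

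RefSeq places the start of Map7d2 at 2 sites on this build (GRCm38.p6), and the table holds 1 value per gene, so the values above do not separate them. Both windows of 250 bases before and 50 after the start are shown with each CG dinucleotide in capitals, because they differ in this feature. The first holds 40 CG dinucleotides and 71.3% G or C, and the second holds none and 40.0% G or C. The median of 32851 such windows of the RefSeq genes is 7 CG dinucleotides.
Map7d2, first start, chrX:159414322-159414621, plus strand: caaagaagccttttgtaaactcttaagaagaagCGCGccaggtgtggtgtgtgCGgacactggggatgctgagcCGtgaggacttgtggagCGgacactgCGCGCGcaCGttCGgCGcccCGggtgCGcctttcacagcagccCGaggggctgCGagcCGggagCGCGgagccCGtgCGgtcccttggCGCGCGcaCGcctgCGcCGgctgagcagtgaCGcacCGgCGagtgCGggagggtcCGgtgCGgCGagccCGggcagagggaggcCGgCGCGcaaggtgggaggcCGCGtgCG
Map7d2, inner start, chrX:159458875-159459174, plus strand: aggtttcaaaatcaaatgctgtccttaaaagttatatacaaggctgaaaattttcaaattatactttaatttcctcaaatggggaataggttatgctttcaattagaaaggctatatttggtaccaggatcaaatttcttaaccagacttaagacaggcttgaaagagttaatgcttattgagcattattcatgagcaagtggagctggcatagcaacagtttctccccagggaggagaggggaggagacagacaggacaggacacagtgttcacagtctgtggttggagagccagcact

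The starts of Map4 and Map1b, the genes measured with the most reads among those that were lower, are shown for comparison with the same marking. Map4 also has an inner start with 5 CG dinucleotides.
Map4, first start, chr9:109931524-109931823, plus strand: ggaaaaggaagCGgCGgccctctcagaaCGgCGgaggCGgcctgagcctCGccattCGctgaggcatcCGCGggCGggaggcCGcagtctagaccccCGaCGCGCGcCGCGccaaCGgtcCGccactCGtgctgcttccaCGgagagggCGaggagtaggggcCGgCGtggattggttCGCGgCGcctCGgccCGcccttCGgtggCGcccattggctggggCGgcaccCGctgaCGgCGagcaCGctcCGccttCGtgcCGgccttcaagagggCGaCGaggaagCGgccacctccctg
Map1b, chr13:99516553-99516852, minus strand: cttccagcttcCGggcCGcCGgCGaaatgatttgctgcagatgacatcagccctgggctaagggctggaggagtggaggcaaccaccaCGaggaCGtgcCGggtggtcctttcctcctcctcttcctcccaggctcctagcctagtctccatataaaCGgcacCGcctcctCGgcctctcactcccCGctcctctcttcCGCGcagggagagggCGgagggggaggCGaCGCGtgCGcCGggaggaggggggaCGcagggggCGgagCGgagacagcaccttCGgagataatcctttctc

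The Map4 window holds 42 CG dinucleotides and the Map1b window 23. Searched on both strands, GGGCGG (GC box) was in the windows of Map4 and Map1b and in 35.7% of all windows, CCAAT in that of Map4 and in 37.4% of all, and TATAAA in that of Map1b and in 13.6% of all. Neither Map7d2 window held any of these 3 motifs, nor CACGTG (E-box, in 7.15% of all) or the NRF1 core motif (in 0.971%). The GC box contains a CG dinucleotide and so overlaps the marking. Windows were found for 9 of the 10 genes by symbol, all except Mapt. A match of letters is a description and says nothing of binding.

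Map7, which encodes ensconsin, the founding member of the family, had 267, 272, and 251 normalized counts in LNA Control against 230, 217, and 238 in LNA Malat1. It lies on chromosome 10 (positions 20148471 to 20281590, plus strand). The groups did not overlap. The log2 fold change of -0.21 had an SE of 0.07 (adjusted p = 0.036, limma), 1.15-fold lower and under the fold minimum. The adjusted p was above 0.05 in 8 of 18 alternatives, up to 0.13, among them equal library totals (0.07) and quantile normalization (0.11). It was also above 0.05 without LNA Control replicate 1 (0.061) or 2 (0.12) and without LNA Malat1 replicate 1 (0.092), 2 (0.13), or 3 (0.052).

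Map7d1, the paralog of wide expression, lies on chromosome 4 (positions 126232167 to 126256343, minus strand). It had 789, 681, and 716 normalized counts in LNA Control against 796, 754, and 755 in LNA Malat1. The groups overlapped, since LNA Control replicate 1 lay above 2 LNA Malat1 libraries. The log2 fold change was 0.08, with an interval from -0.05 to 0.21 (95%, limma adjusted p = 0.36).

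**Figure D2:**
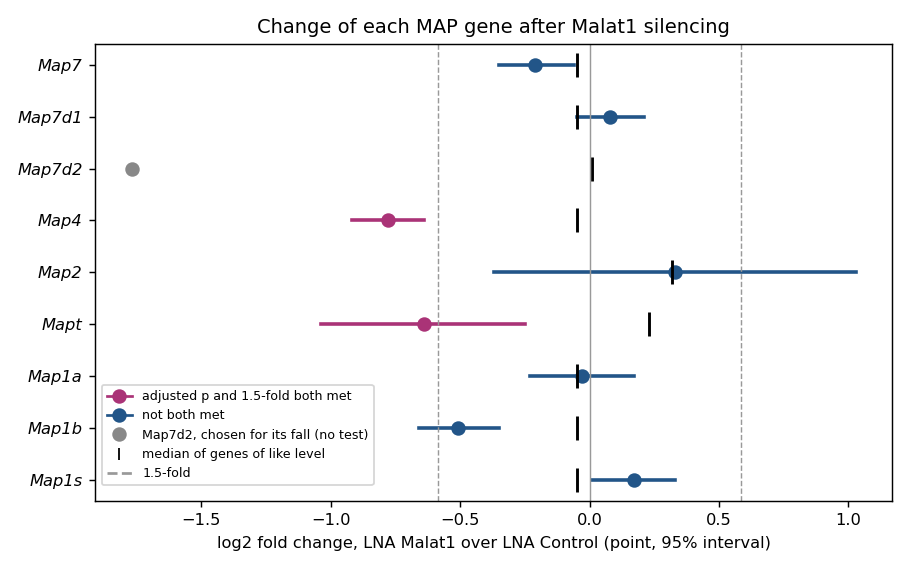
Log2 fold change of LNA Malat1 over LNA Control (x axis) for each gene, with its 95% interval from limma, and black ticks for the median of all tested genes in the same range of mean normalized counts. Map4 (-0.78) and Mapt (-0.64) lie beyond the dashed 1.5-fold line and passed the test, Map1b (-0.51) lies just inside it, and Map7d2 (-1.77) is a point without an interval because it was chosen for this value.

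Levels of different genes can be compared only per length. Per kilobase of exonic sequence, the union of all annotated exons, the order in LNA Control was Map1b, Map7d1, Map4, Map1a, Map7d2, Map7, Map1s, Mapt, and Map2. Map1b had a level of 239 ± 21 (SD, n = 3) normalized counts per kilobase, Map7d1 one of 200 ± 15.1 (SD, n = 3), and Map4 one of 98.4 ± 8.86 (SD, n = 3). Map1a (52.3 to 64.3) and Map7d2 (52.9 to 56.1) were the only neighbours in this order whose ranges over libraries overlapped. Below them, Map7 had 33.2 ± 1.38 and Map1s 28.8 ± 1.73 (SD, n = 3). The genes of axonal and dendritic MAPs came last, Mapt with 5.58 ± 0.871 and Map2 with 0.608 ± 0.182 normalized counts per kilobase (SD, n = 3).

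In LNA Malat1 the order began with Map7d1 (210 ± 6.56 normalized counts per kilobase), followed by Map1b (168 ± 8.30) (SD, n = 3). Map4 (56.0 to 58.9) and Map1a (48.9 to 63.5) overlapped. Map7d2, at 16.0 ± 2.31 (SD, n = 3), came after Map1s (32.4 ± 2.14) and Map7 (28.8 ± 1.34), both of which it exceeded in LNA Control. With the length of the longest transcript in place of all exons, 5 of the 9 genes kept their rank in LNA Control. Map4 then came before Map7d1, and Map7 before Map7d2 and Map1a. The order in LNA Malat1 depends on the length too. Per kilobase of the longest transcript, Map7d1 (229) and Map1b (225) had nearly the same mean level there, and Map4 (142) exceeded Map1a (58.7).

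**Figure D3:**
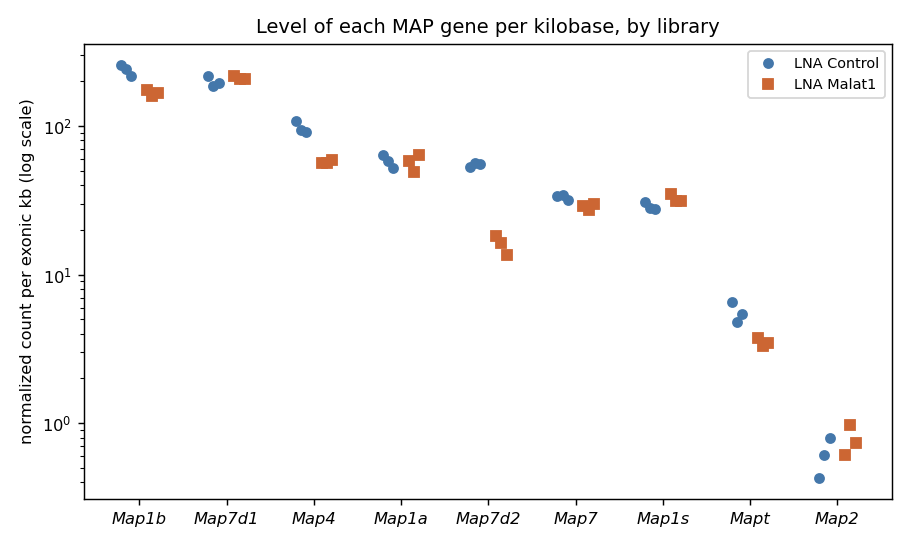
Normalized count per exonic kilobase (y axis, log scale) of each gene in every library, ordered by the level in LNA Control, with LNA Control as circles and LNA Malat1 as squares. Map1b and Map7d1 are at 160 or more in all libraries, Mapt is at 3.32 to 6.51, Map2 stays below 1, and the squares of Map7d2 lie at 13.6 to 18.2.

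Summed per kilobase, the families are given here without a test, since Map7d2 was chosen for its value. The MAP7 family (3 genes) had 303, 277, and 283 normalized counts per kilobase in LNA Control against 265, 250, and 250 in LNA Malat1, 88.7% of LNA Control. The share of Map7d2 in that sum was 17.5%, 20.3%, and 19.6% in LNA Control against 6.86%, 6.50%, and 5.43% in LNA Malat1. Map7d1 made up 69.3% and 82.5% of it (means of 3 libraries). Map7d1 thus held most of the family sum in both groups. The order of the other members depends on the length used, since per kilobase of the longest transcript Map7 (61.9) and Map7d2 (61.6) had nearly the same mean level in LNA Control.

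The sum of Map4, Map2, and Mapt was 115, 100, and 98.2 normalized counts per kilobase in LNA Control against 60.6, 60.3, and 63.1 in LNA Malat1, 58.6% of LNA Control. Map4 made up 94.1% of the sum in LNA Control and 93.0% in LNA Malat1. The MAP1 family had 354, 327, and 297 and then 270, 240, and 263, 78.9% of LNA Control. Within it the share of Map1b was 73.3% ± 0.303 and 65.3% ± 1.33 (SD, n = 3). Over all 9 genes the sum was 718 ± 48.5 and 574 ± 22.8 (SD, n = 3), 79.9% of LNA Control.

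**Figure D4:**
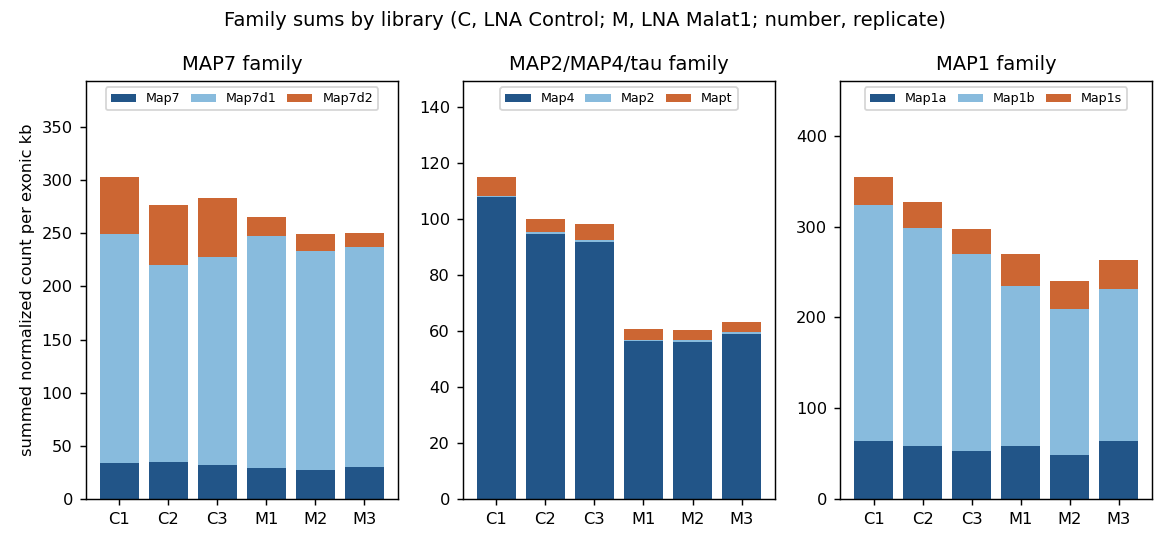
Summed normalized count per exonic kilobase (y axes, from 0) of the 3 families in each library, with 1 bar per library (C, LNA Control; M, LNA Malat1) and colours for the member genes. The Map7d2 block is at least 52.9 in LNA Control and at most 18.2 in LNA Malat1, the Map7d1 block is 186 to 218 in all libraries, and nearly all of the middle panel is Map4.

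What the 9 genes share outside the rule was uneven. In the gene annotation of the authors' table, 7 of the 9 carry the term microtubule, and Map7d1 and Map7d2 do not. Their gene spans ran from 11.6 kilobases (Map1s) to 267 kilobases (Map2). Apart from Map1a, the exons of Map7 and Map2 overlap an antisense gene (4.18% and 0.754% of their bases), neither of which is in the table.

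By the distance between centred log2 profiles over the 6 libraries, the genes closest to Map7d2 among 15637 others were Colec12 (distance 0.245), Lrmda (0.321), and Nsdhl (0.479). Colec12, a scavenger receptor gene, had 261, 272, and 276 normalized counts in LNA Control against 99, 92, and 79 in LNA Malat1, the same order of the 3 LNA Malat1 libraries as in Map7d2. Nsdhl encodes an enzyme of cholesterol synthesis. Lrmda rested on 16 or 17 and on 4 normalized counts. These genes share the libraries and the contrast, and the distance is a description.

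The genes that work with the structural MAPs were followed as 5 lists. Kinesin-1, the motor that MAP7 proteins recruit, had 0 of 6 tested subunit genes called by limma or by voom and 1 at an unadjusted p under 0.05 by either, with a median log2 fold change of 0.06. Over all genes 10.9% were called, and at an unadjusted p under 0.05 limma gave 19.2% lower and 20.7% higher. Kif5b, the widespread heavy chain, had 1668, 1854, and 1696 normalized counts in LNA Control against 1717, 1755, and 1671 in LNA Malat1. The groups overlapped, and the log2 fold change of -0.02 had an SE of 0.06 (adjusted p = 0.83, limma). The 1 subunit gene with an unadjusted p under 0.05 was the light chain Klc4, named after its value was seen. Klc4 was also lower at the adjusted p alone (log2 fold change -0.35, limma adjusted p = 0.021).

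Of 10 tested kinases that phosphorylate MAPs, 1 was called, and it was lower, as were 2.92% of all genes. Ttbk2, a tau tubulin kinase, had 240, 229, and 285 normalized counts in LNA Control against 133, 146, and 128 in LNA Malat1 (limma, adjusted p = 2.2e-05), a log2 fold change of -0.88 with an SE of 0.09. At the adjusted p alone, 3 of the 10 were lower and 1 higher (14.0% and 14.3% of all genes), with a median log2 fold change of -0.01 over the list.

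Among 24 tested genes of other proteins that bind the lattice or its ends, 1 was called (10.9% of all genes). Camsap3, which caps microtubule minus ends, had 151, 156, and 149 normalized counts in LNA Control against 97, 91, and 90 in LNA Malat1 (limma, adjusted p = 7.6e-05), a log2 fold change of -0.71 with an SE of 0.09. At the adjusted p alone, 9 of the 24 were lower and 2 higher, where 14.0% and 14.3% of all genes were, and the median log2 fold change was -0.14.

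Of 12 tested tubulin genes, 2 were called lower and 1 higher (2.92% and 8.0% of all genes), with a median log2 fold change of -0.14. At the adjusted p alone, 4 of the 12 were lower and 1 higher, where 14.0% and 14.3% of all genes were. Tubb2a, a beta tubulin, had 35, 37, and 36 normalized counts in LNA Control and 19 in each LNA Malat1 library (log2 fold change -0.89, limma adjusted p = 0.0037). Tuba8, an alpha tubulin of muscle and brain, had means of 170 ± 5.2 and 108 ± 6.1 (SD, n = 3) (log2 fold change -0.65, limma adjusted p = 0.00012). Tubb3, the beta tubulin used as a neuronal marker, rose from 10, 8, and 8 to 27, 28, and 25 (log2 fold change 1.52, limma adjusted p = 0.00066). Genes with a mean from 10 to below 20, the range of Tubb3, had a median log2 fold change of 0.32, and 18.5% of them were called higher. Of 10 neuronal markers, the 6 present in the table summed to 33 to 47 normalized counts in LNA Control and 49 to 60 in LNA Malat1. None of the 3 with a mean of at least 5 was called. The other 3 were too low to be tested and had their higher mean in LNA Malat1, among them Rbfox3 with 0, 0, and 1 normalized counts in LNA Control against 9, 4, and 4 in LNA Malat1. The part of these markers in the rise of Tubb3 was not tested. Tubulin genes are close copies of each other, and reads that aligned to several regions were excluded, so their values are uncertain.

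Of 25 tested genes of tubulin modifying and severing enzymes, 1 was called and it was higher, as were 8.0% of all genes. Agbl3, a carboxypeptidase that trims glutamate from tubulin tails, had 128, 114, and 141 normalized counts in LNA Control against 197, 191, and 198 in LNA Malat1 (limma, adjusted p = 0.00027), a log2 fold change of 0.61 with an SE of 0.09. Without LNA Control replicate 2 its log2 fold change was 0.54, under the 1.5-fold minimum. At the adjusted p alone 3 of the 25 were higher and 2 lower, near the 14.3% and 14.0% of all genes, and the median log2 fold change was 0.04. The smallest adjusted p of the list belonged to Hdac6, which was lower (limma, adjusted p = 1.7e-05). Its log2 fold change of -0.57 was under the 1.5-fold minimum, and it was named after its value was seen.

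**Figure D5:**
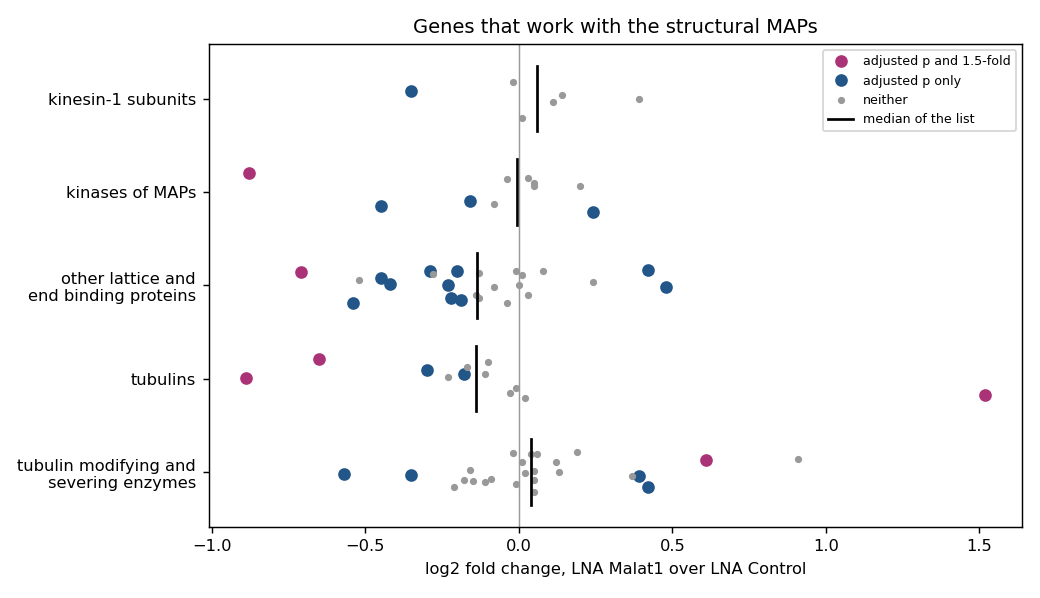
Log2 fold change of LNA Malat1 over LNA Control (x axis) of every tested gene in the 5 lists, with 1 point per gene, spread vertically for legibility, and the list's median as a black line. Medians lie between -0.14 and 0.06, the called genes (purple) are 4 lower ones between -0.89 and -0.65 and 2 higher ones, Agbl3 at 0.61 and Tubb3 at 1.52, and no kinesin-1 subunit gene is among them.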

How the data were processed

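RNA-seq of 6 HL-1 libraries was analysed. Per the paper's methods and the labels, the authors used Trimmomatic 0.39 for trimming and STAR 2.7.7a for alignment to mm10 with Ensembl gene models, counted reads on exons with featureCounts 1.6.5, excluded reads on several genes or regions, and tested genes with DESeq2 1.30.0. The deposited values are a score, normalized counts rounded to whole numbers, and not raw counts, so no count model was the main test. All genes averaging 5 or more entered limma (version 3.58.1, R 4.3.3) as log2(normalized count + 1), the prior variance following the mean, two-sided, all 6 libraries, adjusted over all genes tested, and checked on simulated data. Groups came from the sample titles. With 3 libraries a group, the smallest exact permutation p is 0.1. The members and lists were chosen with earlier results of these data known. Named genes are all members, Malat1, Kif5b, up to 3 called genes per list by size of change, and the 3 genes closest to Map7d2. Klc4 and Hdac6 were added after their values were seen. Named cell type markers are Actc1 and Tnnt2, and the other markers printed singly were chosen after their values were seen. Exonic lengths come from GENCODE M21 on the same build, where all 9 members have the same position, and promoter windows from RefSeq. The chi-square covers counting error only, since reads carry no molecular identifiers. Alternatives are listed in the closing section. No protein sequences were used here. The deposited table also holds gene annotation, of which symbols, positions, and terms were used.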

Additional observations from a re-analysis of the deposited data

How the results depend on the processing

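Settings varied were the pseudocount (0.1 and 5), the scaling (median-of-ratios, quantile, equal totals), the filter (none, or a mean of 50 or more), the fold minimum, voom on recovered reads, blocking by replicate number, merging LNA Malat1 replicates 1 and 3, and leaving out each library. Of all genes, 1709 were called (73.3% higher), 666 with a mean of at least 50 (47.6% higher), 4426 without a fold minimum, 841 at 2-fold or more, and 1466 (52.5% higher) with quantile normalization. With a library left out the number was 1179 to 2054. Of the 8 members other than Map7d2, 2 were called (Map4 and Mapt), 4 without a fold minimum, 0 at 2-fold, 1 with a pseudocount of 5 (Mapt at a log2 fold change of -0.58), 1 with a mean of at least 50, which removes Mapt, and 1 or 2 with a library left out. With replicates 1 and 3 as 1 sample, 1223 genes were called, Map4 and Mapt among them. Signs turned only in genes that were not called: Map1a (0.03 with quantile normalization, 0.01 with equal totals, 0.04 without LNA Control replicate 1, 0.07 without LNA Malat1 replicate 2, and -0.11 at the lowest with another library left out), Map2 (-0.05 with quantile normalization), and Kif5b (0.0, 0.02, and 0.03 with quantile normalization, equal totals, and without LNA Control replicate 2). With exonic length replaced by the longest transcript, 5 of 9 ranks in LNA Control were kept, and 7 to 9 with a library left out. The causes were not tested.

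For the pairing, deviations of same-numbered libraries correlated at 0.086, 0.182, and 0.083 over 10490 genes, and each correlated best with its own number, a hint from the data only. With the replicate block, 1739 genes were called, Map4 and Mapt among them. Map2, with 7 to 16 normalized counts per library, was too shallow for its interval to exclude either direction.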
